A study of Mus musculus with 6 samples.

Results

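The colony-stimulating factors and their receptors were followed in the lungs of endotoxaemic mice given recombinant antithrombin or saline. The 7 genes are the ligands Csf1, Csf2 and Csf3 and the receptor chains Csf1r, Csf2ra, Csf2rb and Csf3r. They were found by the RefSeq transcript named for each array probe, and the brightest of a gene's probes was used. All 7 were among the 22910 named genes on the array, and all 7 were among the 17516 named genes tested.

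Antithrombin is a plasma protein that blocks thrombin and other clotting enzymes. The mice were male C57BL6 animals of 10 weeks, fasted for 16 h and then injected into the peritoneum with lipopolysaccharide at 20 mg/kg. At 3 h and 24 h, 3 mice received recombinant antithrombin at 750 IU/kg and 3 mice received saline, and whole lung RNA was taken at 30 h. Every mouse had lipopolysaccharide, and no mouse without it was analysed here. Each label names a separate mouse, with 1 one-colour array each, so n counts mice.

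Colony-stimulating factors are secreted proteins that drive the production, survival and activation of myeloid cells. M-CSF, from Csf1, acts on monocytes and macrophages through the receptor tyrosine kinase of Csf1r. GM-CSF, from Csf2, is required in the lung for the maturation of alveolar macrophages and signals through a ligand-binding alpha chain, Csf2ra, and a signalling chain, Csf2rb. G-CSF, from Csf3, drives neutrophil production in the bone marrow through Csf3r.

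Values are log2 signals of the scanner software with the 75th percentile of the array subtracted, so 0 is the signal of a probe at that percentile, and a difference is antithrombin minus saline. Levels of different genes come from different probes and were not set against each other, except that signals of a list are also summed. On the arrays between 69.9% and 72.1% of probes exceeded the scanner software's background limit, and 0 spots were saturated. Lung identity held on every array, with 5 of 5 alveolar type 2 and 4 of 4 alveolar type 1 markers above background. Saline mouse 2 stood apart from its group. Its array, over all tested genes, which do not count as replicates, had a mean Pearson r of 0.993 with the antithrombin arrays. With the other saline arrays that r was 0.989, so results are also given without this mouse where it moves them. It was singled out for its likeness to the antithrombin arrays, so leaving it out favours larger differences. The count past the adjusted threshold then rose from 2 to 3421, or 10.5% of all tested, and such passes are a description only.

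In these lungs Csf3 differed most among the 7 genes. Its signal was 1.88-fold higher with antithrombin on average, and every antithrombin mouse lay above every saline mouse. Csf2ra was 1.44-fold higher on average, while Csf1 and Csf3r differed by less than 0.05 log2. With limma's moderated test adjusted over all 32451 genes and unnamed probes, 0 of the 7 genes passed a threshold of 0.05, where 0.00616% of all tested passed. At an unadjusted p under 0.05 the count was 2 of 7, both higher, where 21.6% of all tested passed, 8.73% higher and 12.9% lower. Of the 7 differences 5 were positive, where 43% of all tested were. The median difference of the 7 genes was 0.33 log2, beside -0.05 over all tested. The groups did not overlap for 1 of the 7, where 28.8% of all tested did not overlap, 10.7% with antithrombin higher and 18.1% with it lower. Without saline mouse 2, 4 of the 7 genes had an unadjusted p under 0.05, where 31.8% of all tested did, and the groups did not overlap for 5 of the 7, where 51.8% of all tested did not, 21.2% with antithrombin higher.

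**Figure D1:**
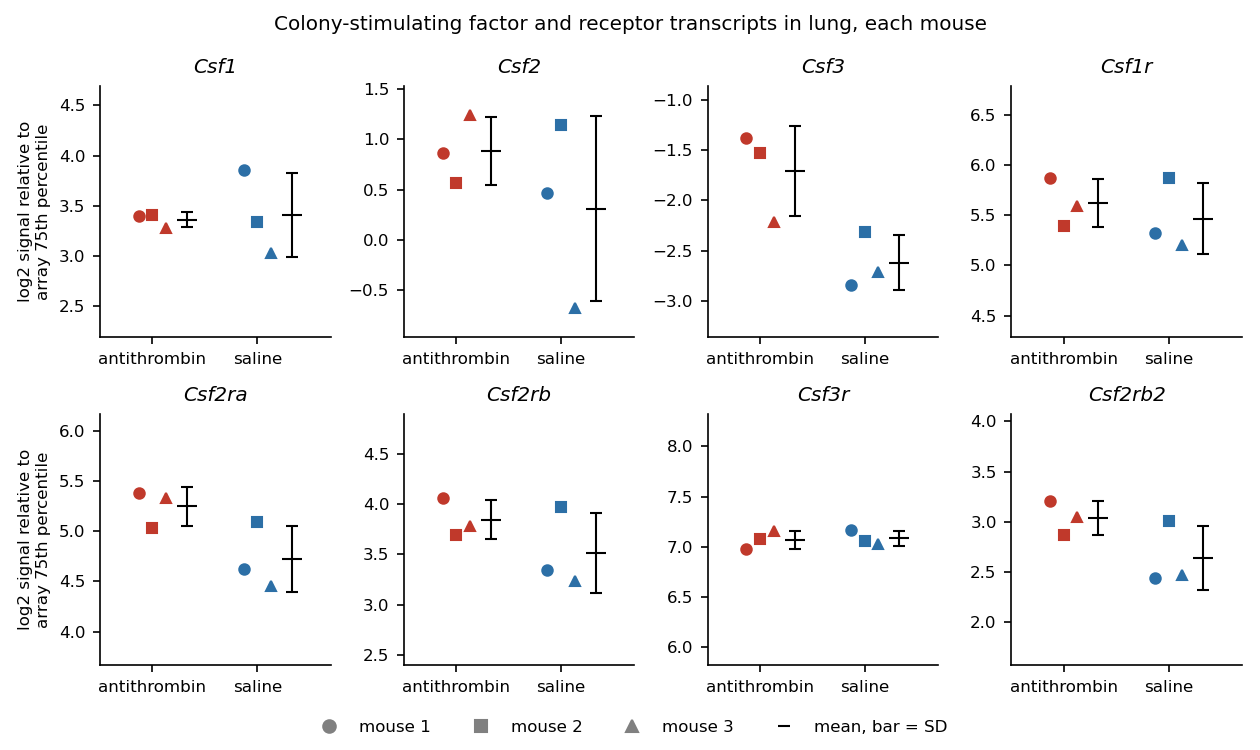
Log2 signal relative to the array's 75th percentile for the 7 genes and Csf2rb2, 1 panel per gene, with antithrombin mice left of saline mice; points are mice, and bars show the group mean and SD. For Csf3 the lowest antithrombin mouse, at -2.22, lies above the highest saline mouse, at -2.32, and in the other panels the groups overlap.

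Among the ligands, Csf3 encodes G-CSF. Its values were -1.38, -1.53 and -2.22 log2 in antithrombin mice 1, 2 and 3, against -2.84, -2.32 and -2.71 in saline mice 1, 2 and 3. Antithrombin mouse 3 and saline mouse 2 nearly met, and the other mice lay further apart. The difference was 0.91 log2 (SE 0.25, 95% interval 0.31 to 1.51, n = 3 each), with an unadjusted p of 0.0089 and an adjusted p of 0.158 by limma. Of all genes tested 5.63% had a smaller p. The exact two-sided permutation test of the 6 values gave p = 0.1, the smallest that 3 against 3 allow. Csf3 kept an unadjusted p under 0.05 in all 18 alternatives, with differences between 0.69 and 1.17 log2, and its adjusted p ran from 0.059 to 0.359. In whole lung, fewer cells of a type and less RNA per cell cannot be told apart, for this gene and all others below.

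Csf2 encodes GM-CSF. Its values were 0.86, 0.56 and 1.24 log2 in antithrombin mice 1, 2 and 3, against 0.47, 1.14 and -0.68 in saline mice 1, 2 and 3. Saline mouse 3 was the lowest of the 6 and saline mouse 2 was among the highest, so the groups overlapped and the saline mice spread widest. The difference was 0.58 log2 (SE 0.45, 95% interval -0.49 to 1.64, n = 3 each) with an unadjusted p of 0.239 and an adjusted p of 0.462 by limma. Single mice set its size, which was 0.08 log2 without saline mouse 3 and 0.99 without saline mouse 2, at an adjusted p of 0.139 by limma in the second case.

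Csf1 encodes M-CSF. Its values were 3.40, 3.41 and 3.28 log2 in antithrombin mice 1, 2 and 3, against 3.86, 3.34 and 3.03 in saline mice 1, 2 and 3. The antithrombin mice lay close together inside the range of the saline mice, of which mouse 1 was the highest and mouse 3 the lowest of all 6. The difference was -0.04 log2 (SE 0.21, 95% interval -0.55 to 0.46, n = 3 each), with an adjusted p of 0.915 by limma. The other probes of Csf1 differed by -0.04 and -0.06 log2. The sign turned to 0.18 without saline mouse 1.

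Among the receptors, Csf2ra encodes the chain that binds GM-CSF. Its values were 5.38, 5.03 and 5.33 log2 in antithrombin mice 1, 2 and 3, against 4.62, 5.09 and 4.46 in saline mice 1, 2 and 3. Saline mouse 2 lay within the antithrombin range and the other saline mice below it. The difference was 0.52 log2 (SE 0.19, 95% interval 0.06 to 0.99, n = 3 each), with an unadjusted p of 0.032 and an adjusted p of 0.199 by limma. Without saline mouse 2 the difference was 0.71 log2 with an adjusted p of 0.044 by limma, in a fit where 10.5% of all tested passed that threshold. Without antithrombin mouse 1 or 3 or saline mouse 1 or 3 the difference was 0.46, 0.48, 0.47 and 0.39 log2, with an unadjusted p over 0.05 each time.

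Csf2rb encodes the common beta chain, through which GM-CSF, IL-3 and IL-5 all signal. Its values were 4.07, 3.69 and 3.78 log2 in antithrombin mice 1, 2 and 3, against 3.34, 3.97 and 3.23 in saline mice 1, 2 and 3. Saline mouse 2 was again within the antithrombin range, and saline mice 1 and 3 were the lowest of the 6. The difference was 0.33 log2 (SE 0.22, 95% interval -0.19 to 0.85, n = 3 each), with an unadjusted p of 0.179 and an adjusted p of 0.40 by limma. Its other probes gave 0.42 and 0.00 log2. Without saline mouse 2 the difference was 0.56 log2, at an adjusted p of 0.068 by limma. It was 0.19 without saline mouse 3, 0.22 without antithrombin mouse 1 and 0.24 without saline mouse 1, with an unadjusted p over 0.05 each time.

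Csf2rb2 encodes the mouse beta chain specific to IL-3 and is a near copy of Csf2rb, so its probe and that of Csf2rb may bind each other's transcript. Its values were 3.21, 2.87 and 3.05 log2 in antithrombin mice 1, 2 and 3, against 2.44, 3.01 and 2.47 in saline mice 1, 2 and 3. The order of the mice was like that of Csf2rb, with saline mouse 2 among the antithrombin mice. The difference was 0.40 log2 (SE 0.19, 95% interval -0.04 to 0.84, n = 3 each), with an unadjusted p of 0.070 and an adjusted p of 0.260 by limma.

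Csf1r encodes the receptor of M-CSF and IL-34. Its values were 5.87, 5.39 and 5.59 log2 in antithrombin mice 1, 2 and 3, against 5.32, 5.87 and 5.20 in saline mice 1, 2 and 3. The highest mice of both groups had nearly equal values, and saline mice 1 and 3 were the lowest. The difference was 0.16 log2 (SE 0.21, 95% interval -0.35 to 0.66, n = 3 each), with an unadjusted p of 0.487 and an adjusted p of 0.680 by limma. The other Csf1r probe differed in the opposite direction, by -0.07 log2. Single mice set the size of the Csf1r difference, which was 0.36 log2 without saline mouse 2, at an adjusted p of 0.206 by limma. It was 0.09, 0.02 and 0.03 without saline mouse 1, saline mouse 3 and antithrombin mouse 1, and 0.27 without antithrombin mouse 2.

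Csf3r encodes the G-CSF receptor of neutrophils and their precursors. Its values were 6.98, 7.07 and 7.16 log2 in antithrombin mice 1, 2 and 3, against 7.17, 7.06 and 7.03 in saline mice 1, 2 and 3. The 6 mice were close together and the groups overlapped throughout. The difference was -0.01 log2 (SE 0.11, 95% interval -0.27 to 0.24, n = 3 each), with an adjusted p of 0.955 by limma, and its sign turned under 5 of the 18 alternatives. The interval of Csf3r was the narrowest of the 7 genes.

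**Figure D2:**
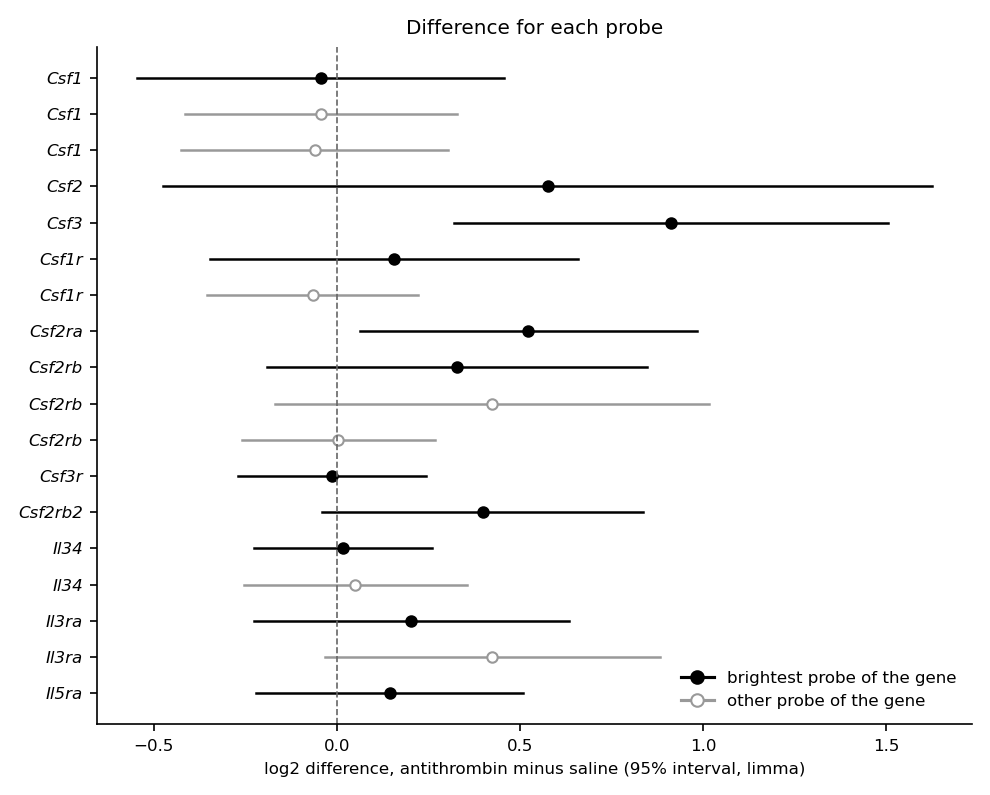
Difference in log2 signal, antithrombin minus saline, for each tested probe of the 7 genes, Csf2rb2, Il34, Il3ra and Il5ra. Lines are the 95% interval of limma's fit, on a horizontal axis in log2 units. The intervals of Csf3 and Csf2ra lie above 0, and those of the other members include 0.

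**Figure D3:**
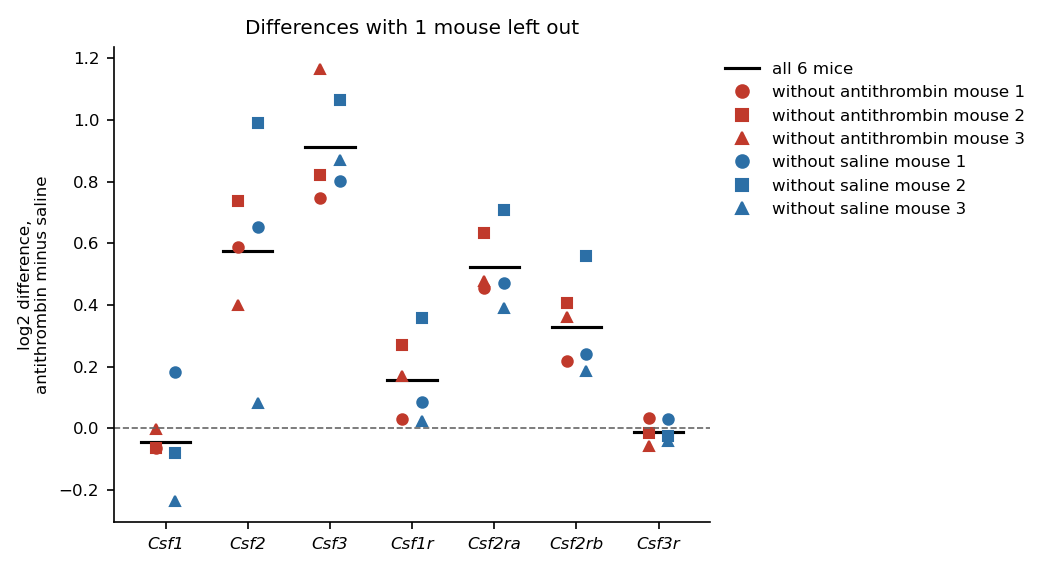
Difference in log2 signal, antithrombin minus saline, for the 7 genes with all mice and without each mouse in turn. Csf3 stays between 0.75 and 1.17, Csf2 runs from 0.08 to 0.99, and Csf1 and Csf3r pass through 0.

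The other ligands and chains of these receptors did not pass the test. Il34, the second ligand of the M-CSF receptor, differed by 0.02 log2, at an adjusted p of 0.928 by limma. Il3ra, the alpha chain for IL-3, differed by 0.20 log2 and its other probe by 0.42. Il5ra, the alpha chain for IL-5, differed by 0.15 log2. Il3, made by activated T cells and mast cells, was well above background on 2 of 3 antithrombin and 2 of 3 saline arrays. Its difference was -0.44 log2. The other probes of Il3 and Il5ra were well above background on 0 of the 6 arrays and were not tested. Il5 was not above background on any of the 6 arrays. Of the 11 tested related cytokines and receptors, 0 had an unadjusted p under 0.05 by limma, where 21.6% of all tested did. Their median difference was 0.08 log2. When saline mouse 2 was left out, 1 was higher, Csf2rb2 by 0.58 log2 at an adjusted p of 0.053, and 1 was lower, Il3 by -0.79 log2 at an adjusted p of 0.133, both by limma.

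Promoter sequence is shown for receptor chains because Csf2ra and Csf2rb2 had like orders of mice while the Csf3r difference was near 0. Each is the 250 bases before the RefSeq start on assembly GRCm38.p6, 5′ to 3′ on the gene's strand. The RefSeq table held 5 of the 8 genes described above, and 3 are printed. Capitals mark the letters GAGGAAG on either strand, the core of sites known for the myeloid factor PU.1.
Csf2ra: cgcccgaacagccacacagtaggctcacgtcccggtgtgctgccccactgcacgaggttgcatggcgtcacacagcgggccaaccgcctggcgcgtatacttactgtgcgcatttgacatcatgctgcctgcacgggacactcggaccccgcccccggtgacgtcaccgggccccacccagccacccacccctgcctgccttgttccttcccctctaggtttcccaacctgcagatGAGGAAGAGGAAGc
Csf2rb2: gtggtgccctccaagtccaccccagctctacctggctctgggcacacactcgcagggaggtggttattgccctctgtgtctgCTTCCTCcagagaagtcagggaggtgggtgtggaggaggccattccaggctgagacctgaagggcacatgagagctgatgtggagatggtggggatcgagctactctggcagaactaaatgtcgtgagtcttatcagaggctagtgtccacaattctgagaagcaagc
Csf3r: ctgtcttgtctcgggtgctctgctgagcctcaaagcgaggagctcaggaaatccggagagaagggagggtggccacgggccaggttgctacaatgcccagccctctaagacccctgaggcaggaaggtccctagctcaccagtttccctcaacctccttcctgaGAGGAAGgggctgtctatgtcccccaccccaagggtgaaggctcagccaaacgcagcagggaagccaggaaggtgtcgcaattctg
They lie at chr19:61228419-61228668 on the minus strand for Csf2ra, at chr15:78305722-78305971 on the minus strand for Csf2rb2 and at chr4:126024409-126024658 on the plus strand for Csf3r.

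The motif letters were chosen with these sequences in view, after other patterns had been tried, so the matches are a description only. In Csf2ra the letters occur 14 to 8 and 8 to 2 bases before the start, the matches sharing 1 base. Csf2rb2 has them on the other strand 168 to 162 bases before the start, and Csf3r 86 to 80 bases before it. Of 32851 RefSeq promoters of this length, 10.6% hold GAGGAAG on either strand. The STAT core letters TTCNNNGAA were found in Csf2rb2, 15 to 7 bases before the start, and in 7.02% of promoters. The C/EBP letters TTGCNNAA, held by 9.56% of promoters, were in none of the 3 windows.

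Spi1, which encodes PU.1, is given because of that motif. It had -0.83, -1.34 and -1.22 log2 in antithrombin mice 1, 2 and 3, against -1.45, -0.80 and -1.44 in saline mice 1, 2 and 3. Saline mouse 2 had the highest value of the 6, and the groups overlapped. The difference was 0.10 log2 (SE 0.22, n = 3 each), at an adjusted p of 0.813 by limma, and 0.31 without saline mouse 2, at an adjusted p of 0.274.

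Downstream of the receptors, signalling genes lay on both sides of 0. Of 27 tested, 1 was higher and 6 were lower at an unadjusted p under 0.05, beside 8.73% higher and 12.9% lower over all tested. Their median difference was 0.10 log2, and 0 passed the adjusted threshold by limma. Stat5a, a transcription factor activated by GM-CSF, differed by -0.34 log2 and Jak2, the kinase bound to the common beta chain, by -0.30. Gab2, a docking adaptor, differed by -0.48 log2, Pik3r1, a regulatory subunit of PI3 kinase, by -0.43, and Src, a tyrosine kinase, by -0.38. The groups did not overlap for these 5 genes, and their adjusted p lay between 0.167 and 0.182 by limma. Of the 27, groups did not overlap for 7 with antithrombin lower and 0 with it higher, beside 18.1% and 10.7% of all tested. Jak2 falls outside the rule for named genes and was chosen after its value was seen. Without saline mouse 2 the count at an unadjusted p under 0.05 was 7 higher and 7 lower, beside 13.5% and 18.3% of all tested. In that fit 2 higher and 1 lower passed the adjusted threshold by limma, where 10.5% of all tested passed. Without any other single mouse the unadjusted count was 0 or 1 higher and 2 to 5 lower. Of all 32451 tested, 1823 to 2211 were then higher and 2324 to 2975 lower.

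Genes that attenuate receptor signalling had 2 of 17 higher, and 4 lower, by an unadjusted p under 0.05. Over all tested 8.73% were higher and 12.9% lower. The list had a median of -0.13 log2, and 0 past the adjusted threshold by limma. Socs2, a feedback inhibitor whose transcription follows STAT5, was 4.02, 3.96 and 3.78 log2 in antithrombin mice 1, 2 and 3, against 4.91, 4.25 and 4.99 in saline mice 1, 2 and 3. All 3 antithrombin mice lay below the saline mice, of which mouse 2 was the nearest. The difference was -0.79 log2 (SE 0.21, n = 3 each), with an adjusted p of 0.157 by limma. Without saline mouse 2 it was -1.02 log2 at an adjusted p of 0.026 by limma, in a fit where 10.5% of all tested passed. Spred1 and Spred2, inhibitors of the Ras pathway, differed by -0.43 and -0.48 log2. Pim2, a survival kinase, differed by 0.47 log2. Socs3, the feedback inhibitor of G-CSF signalling, had 5.16, 5.10 and 5.14 log2 in antithrombin mice, against 4.79, 5.20 and 4.54 in saline mice, and the groups overlapped through saline mouse 2. With saline mouse 2 left out the list had 6 higher and 6 lower, beside 13.5% and 18.3% of all tested. In that fit 3 of the lower ones passed the adjusted threshold by limma. Without any other single mouse 1 was higher and 1 or 2 were lower, beside 1823 to 2211 and 2324 to 2975 of all 32451 tested.

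Of 19 myeloid transcription factors, 3 were higher and 1 was lower at an unadjusted p under 0.05, beside 8.73% and 12.9% of all tested. Their median difference was 0.10 log2, and 0 passed the adjusted threshold by limma. Gfi1, needed for neutrophil differentiation, differed by 0.52 log2, Maf, a macrophage factor, by 0.49, and Egr2, an early response factor of macrophages, by 1.02. Bhlhe40, a repressor in the circadian clock and in macrophages, was the lower one, by -0.29 log2. With saline mouse 2 left out, 5 were higher, beside 13.5% of all tested. In that fit 1 passed the adjusted threshold by limma, where 10.5% of all tested passed. Without any other single mouse 2 or 3 were higher, beside 1823 to 2211 of all 32451 tested.

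Il1a, Tnf and Il33, cytokines known to induce colony-stimulating factors, had higher signals in all 3 antithrombin mice than in any saline mouse. Of 15 tested inducers and their signalling genes, 5 were higher, and 0 lower, by an unadjusted p under 0.05, beside 8.73% higher over all tested, with a median of 0.20 log2 and 0 past the adjusted threshold by limma. Il1a, an alarmin of the IL-1 family, had -2.31, -2.58 and -2.28 log2 in antithrombin mice 1, 2 and 3, against -3.36, -2.99 and -3.90 in saline mice 1, 2 and 3. Tnf had 0.63, 0.66 and 0.76 log2 in antithrombin mice 1, 2 and 3, against -0.65, 0.33 and -0.68 in saline mice 1, 2 and 3. Il33, an epithelial alarmin, had 0.88, 0.96 and 1.32 log2 in antithrombin mice 1, 2 and 3, against -0.14, 0.21 and 0.20 in saline mice 1, 2 and 3. For these 3 genes the groups did not overlap, and saline mouse 2 was the highest saline mouse. Of the 15, groups did not overlap for 6 with antithrombin higher and for 1, Rela, with it lower. Over all tested those shares were 10.7% and 18.1%. The differences of Il1a, Tnf and Il33 were 1.02, 1.02 and 0.96 log2, with adjusted p of 0.152, 0.157 and 0.151 by limma. Nfkbiz, an NF-kappaB cofactor, differed by 0.37 log2. Il1b, named to complete the 5 and chosen after its value was seen, differed by 1.15 log2 with overlapping groups. When saline mouse 2 was omitted, 7 of the 15 were higher at an unadjusted p under 0.05, beside 13.5% of all tested. In that fit 5 passed the adjusted threshold by limma, where 10.5% of all tested passed. Without any other single mouse 3 were higher and 0 passed, beside 1823 to 2211 higher of all 32451 tested, where 0 or 1 passed. Il17a, which induces G-CSF, was well above background on 0 of 3 antithrombin and 2 of 3 saline arrays and was not tested.

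Regulators of cytokine mRNA decay had 1 of 9 higher, and 1 lower, by an unadjusted p under 0.05, beside 8.73% and 12.9% of all tested. Their median was -0.07 log2, and 0 passed the adjusted threshold by limma. Elavl1, whose protein HuR stabilises AU-rich messages, differed by 0.62 log2 (SE 0.19, n = 3 each) with an adjusted p of 0.170 by limma. Zfp36l2, of a family that destabilises such messages, differed by -0.40 log2. Rc3h1 and Rc3h2, the Roquin genes, differed by -0.15 and -0.17 log2. Elavl1 passed without saline mouse 2, at an adjusted p of 0.033 by limma, in a fit where 10.5% of all tested passed.

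**Figure D4:**
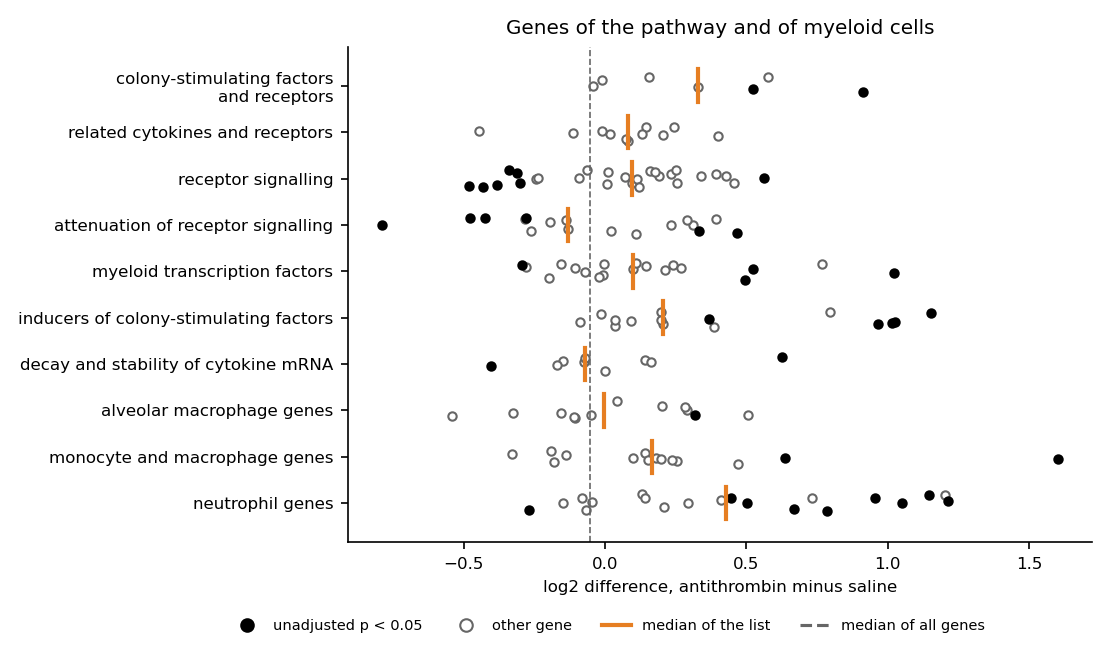
Difference in log2 signal, antithrombin minus saline, for each tested gene of 10 groups; filled points have an unadjusted p under 0.05, short vertical bars are medians of each group of genes, and the dashed line is the median of all tested genes. The neutrophil genes have a median of 0.43 and the alveolar macrophage genes of -0.00.

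The receptors are carried by myeloid cells, so markers of those cells are given beside them. Of 20 tested neutrophil genes, 8 were higher, and 1 lower, by an unadjusted p under 0.05, beside 8.73% higher and 12.9% lower over all tested. Their median was 0.43 log2 and 0 passed the adjusted threshold by limma. Without saline mouse 2 the count was 12 higher and 1 lower, beside 13.5% and 18.3% of all tested. In that fit 6 passed the adjusted threshold by limma, where 10.5% of all tested passed. Without any other single mouse 4 to 8 were higher and 0 passed. Of all 32451 tested, 1823 to 2211 were then higher and 0 or 1 passed. Camp, a granule antimicrobial peptide, differed by 1.21 log2, Cd177, a neutrophil surface protein, by 1.15, and Padi4, the enzyme that citrullinates histones in neutrophil traps, by 0.95. Not all of the list rose, and 15 of the 20 differences were positive. Cxcr4 was the lower one, by -0.27 log2 without overlap between the groups. Of the 20, 8 were higher and 1 lower without overlap, beside 10.7% and 18.1% of all tested. Lcn2 differed by -0.15 log2 and S100a9 by 0.14, with overlapping groups. The mean of the list, less its saline mean, was 0.60, 0.42 and 0.38 log2 in antithrombin mice 1, 2 and 3, against -0.16, 0.28 and -0.13 in saline mice 1, 2 and 3. Its summed signal, in units of the array's 75th percentile, ran from 1439 to 1558 in antithrombin mice and from 1308 to 1516 in saline mice, so the sums overlapped. Such a sum is weighted to its brightest probes, here those of S100a9, Lcn2 and S100a8, and does not describe the whole list. Of 21 listed neutrophil genes on the array, Fcnb stayed below the background limit on all 6 arrays. The part of neutrophil RNA in the Csf3 and Csf2ra differences was not tested.

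Of 14 monocyte and macrophage genes, 2 were higher, and 0 lower, by an unadjusted p under 0.05, beside 8.73% and 12.9% of all tested. Their median was 0.17 log2, and 0 passed the adjusted threshold by limma. Cx3cr1, the fractalkine receptor of patrolling monocytes, differed by 1.60 log2 and Adgre1, which encodes F4/80, by 0.64. Cx3cr1 passed without saline mouse 2, at an adjusted p of 0.029 by limma, in a fit where 10.5% of all tested passed. Over the omission of each mouse 1 to 3 of the list were higher and 0 or 1 lower. Of all 32451 tested, 1823 to 4368 were then higher and 2324 to 5952 lower. Ccr2, a receptor of inflammatory monocytes, differed by 0.47 log2 and Mertk, a receptor for apoptotic cells, by -0.33. The summed signal ran from 391 to 432 in antithrombin mice and from 412 to 442 in saline mice. It was weighted to 1 bright probe, that of Ly6c2, which lay between 7.86 and 8.25 log2 on the arrays. All 14 genes were above background on every array.

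Alveolar macrophage genes, of cells that need GM-CSF to mature, had 1 of 12 higher, and 0 lower, by an unadjusted p under 0.05. Over all tested 8.73% were higher and 12.9% lower. The list had a median of -0.00 log2, and 0 past the adjusted threshold by limma. Car4 was the higher one, by 0.32 log2. At an unadjusted p over 0.05, Itgax, which encodes CD11c, differed by 0.51 log2, Atp6v0d2 by 0.28 and Krt79 by -0.33. Over the omission of each mouse 0 or 1 of the list were higher and 0 or 1 lower. Of all 32451 tested, 1823 to 4368 were then higher and 2324 to 5952 lower. Pparg, the factor that GM-CSF induces in fetal monocytes, had 1.26, 1.14 and 1.40 log2 in antithrombin mice, against 1.65, 1.40 and 1.22 in saline mice, and the groups overlapped. The summed signal of the list ran from 297 to 340.0 in antithrombin mice and from 311 to 383 in saline mice. It was weighted to its brightest probe, that of Chil3, which lay between 7.62 and 7.94 log2.

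Genes whose values ran most like each member over the 6 arrays were found among 202 listed genes, with Pearson r as the measure and no test. Both treatment groups enter each r, so a shared difference between groups raises it. Csf3 was most like Cd177, at r = 0.982, and Ngp, a neutrophil granule gene, at 0.930. Csf2ra had an r of 0.984 with Mmp9, a neutrophil gelatinase. Csf2rb was most like Ptpn6, the phosphatase SHP-1, at 0.988, and Pik3cd, a leukocyte PI3 kinase, at 0.986. Csf1r was most like Tyrobp and Fcer1g, adaptors of myeloid receptors, at 0.987 and 0.984. Csf2 was most like Klre1, a natural killer cell receptor, at 0.956, and Socs3 at 0.923. Klre1 was above background on 3 of 3 antithrombin and 2 of 3 saline arrays. Saline mouse 3 was the lowest for both Csf2 and Klre1. Its Klre1 value was -8.19 log2, against -5.39 to -3.80 in the other mice. That 1 array weighs much in this r, which was not computed without it. Csf3r, whose 6 values hardly spread, was most like Tagln, a smooth muscle gene, at 0.988 and Siglecf at 0.946. Csf1 had the lowest values of the 7, with Ctsg at 0.810 and Cd8a at 0.783.

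**Figure D5:**
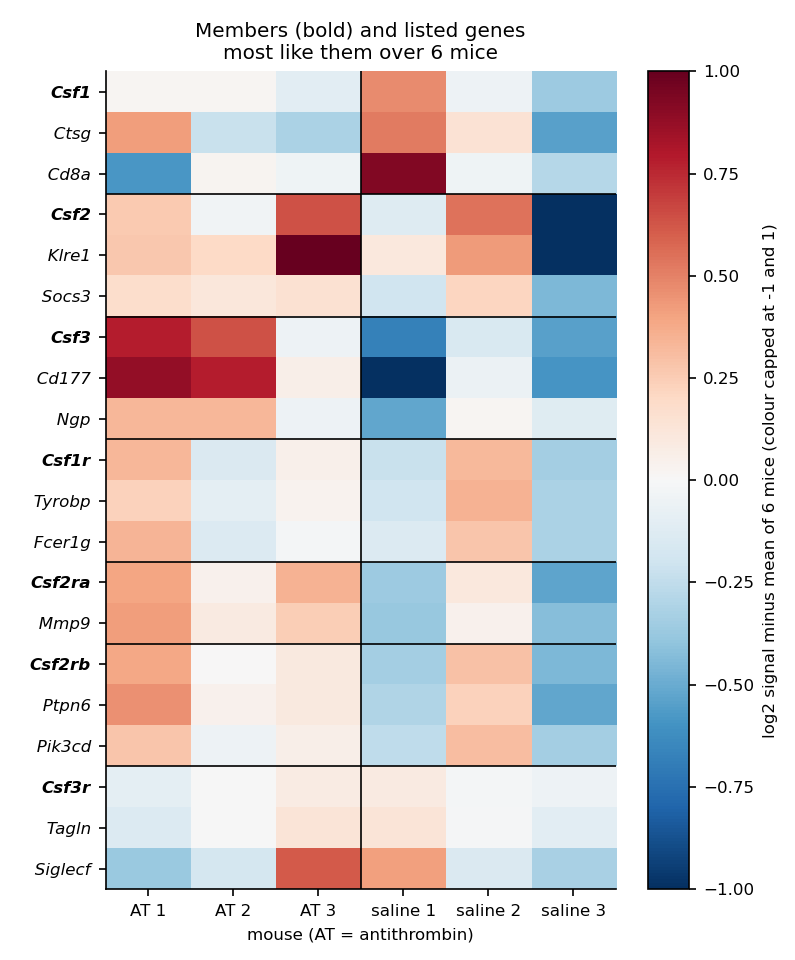
Heat map of the log2 signal less the mean of the 6 mice for each member (bold) and the listed genes named beside it in the text, with antithrombin mice left of saline mice and colours capped at -1 and 1. Csf1r, Csf2ra and Csf2rb run low in saline mice 1 and 3, and Csf3 runs high in antithrombin mice 1 and 2.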

How the data were processed

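Spot intensity values were deposited as scanner files, extracted with Agilent Feature Extraction 10.7.3.1 per the file headers, while version 9.1 stands in the submitters' processing notes. The processed signal used here is background-subtracted and not scaled across arrays. In the deposited table of log2 values, each column matched the log2 processed signal within 0.01 for 100% of probes once 1 offset per probe and 1 per array had been taken out, and where the probe offset comes from is unknown. Its column medians ran from -0.037 to 0.077. Flags for background, saturation and outliers were taken from the deposited files.

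Control and outlier spots were left out, and spots of a probe were averaged, which gave 56605 probes. RefSeq transcripts of assembly GRCm38.p6 named 32994 of them by accession. The array design names another build, so no array coordinates are given. Genes well above background on at least 3 arrays, with values on at least 2 arrays of each group, entered a two-sided test with limma 3.58.1 (lmFit, eBayes) under R 4.3.3. Benjamini-Hochberg adjustment covered 32451 genes and unnamed probes. The fit was tested on simulated data. All arrays lay on 1 slide and had 1 scan time. The number of arrays limits the precision. Figures used matplotlib 3.10.9.

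Members and lists were chosen with earlier results of these data known. Named genes were the 7 members, 6 related ligands and chains, the 4 tested genes with the smallest p of each list and the 2 genes most like each member. Spi1, Jak2, Il1b, Pparg, Cxcr4, the bright genes named beside summed signals and the genes of the closing section fall outside this rule. They were chosen after their values were seen. Some genes that the rule took are left out of the text. There were 18 alternatives. They covered normexp background correction (offset 50), quantile or median scaling, the filter on dim probes (none, or all arrays), the choice of probe (each singly, or a mean), the deposited log2 table, the variance model (trended and robust, or array weights), a block for mouse number, a block for array row, and the omission of each mouse. Same-numbered mice of both groups had deviations that correlated at -0.0095, -0.16 and -0.28, so the numbers were not taken as pairs.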

Additional observations from a re-analysis of the deposited data

How the results depend on the processing

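With all mice, 2 of 32451 genes and unnamed probes passed the adjusted threshold. The count was 1 with normexp background correction, with quantile normalisation, with median scaling, with no filter, with the filter on all arrays, with every probe singly, with trended and robust variance, and with the array row as a block. It ran from 0 to 3421 when each mouse was left out, the highest without saline mouse 2. The count at an unadjusted p under 0.05 was 7014, and 4207 to 10320 without each mouse. Members at an unadjusted p under 0.05 numbered 2, and 1 to 4 without each mouse, the highest without saline mouse 2. Members with groups that do not overlap numbered 1, but 2 with quantile normalisation and 1 to 5 without each mouse. Csf1 ran from -0.23 to 0.18 log2 without each mouse, the sign turning without saline mouse 1. Csf2ra ran from 0.39 to 0.71, passing the adjusted threshold without saline mouse 2. Csf3r was 0.011 with normexp, 0.091 with quantile normalisation and 0.0058 with median scaling, and -0.055 to 0.033 without each mouse, above 0 without antithrombin mouse 1 or saline mouse 1. The cause of these shifts was not tested.

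With mouse number as a replicate block, which the correlations of same-numbered mice do not bear out as a pairing, 0 genes passed the adjusted threshold and 1 member had an unadjusted p under 0.05, Csf3, while Csf2ra had a p of 0.070 by limma. Csf2, Csf1r and Csf2rb kept a positive difference in all 18 alternatives.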

Other observations

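Growth factors of early blood cells, which act beside the colony-stimulating factors, were measured on the same arrays. Kitl, the stem cell factor, had 1.51, 1.55 and 1.66 log2 in antithrombin mice 1, 2 and 3, against 1.65, 1.77 and 1.05 in saline mice 1, 2 and 3, and its receptor Kit differed by -0.11 log2. Flt3l, a growth factor of dendritic cells, differed by 0.24 log2 and its receptor Flt3 by 0.07. Thpo, which drives platelet production, differed by -0.01 log2.

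Among lymphoid cells that can secrete GM-CSF, T cell markers had 0 of 7 higher and 1 lower by unadjusted p. Natural killer cell markers had 0 of 4 in either direction. Group 2 innate lymphoid markers had 0 of 4 higher and 1 lower, Rora at -0.49 log2. These 4 did not move together, as Il1rl1 differed by 0.61 log2, and by 0.16 without saline mouse 2. Markers of other lung cells were looked at as well, whether or not such cells secrete GM-CSF. Alveolar type 2, endothelial and fibroblast markers each had 0 of 5 in either direction by unadjusted p. Smooth muscle markers had 3 of 4 higher, Cnn1 by 1.42, Myh11 by 0.71 and Acta2 by 0.52 log2, each without overlap between the groups and with adjusted p from 0.151 to 0.171 by limma. Alveolar type 1 markers had 2 of 4 lower, Hopx by -0.52 and Aqp5 by -0.47 log2. Over all tested, an unadjusted p under 0.05 was met by 8.73% as higher and 12.9% as lower, and 10.7% did not overlap with antithrombin higher. Without saline mouse 2 the adjusted threshold was passed by these 3 smooth muscle and 2 alveolar type 1 markers, and by the group 2 innate lymphoid markers Rora and Gata3, at -0.70 and -0.88 log2, where 10.5% of all tested passed. These genes were named after their values were seen.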
